A study of Mus musculus with 10 samples.

Results

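The 8 genes described here encode enzymes that make glucose in the liver and proteins that build or break down its glycogen store: G6pc, Pck1, Fbp1, Ppp1r3c, Ppp1r3b, Ppp1r3g, Gys2 and Pygl. They were chosen by name, with earlier results of these data known. Each of the 8 matched 1 row among the 31053 genes of the count tables. The tables come from Visium slides, on which RNA of a frozen mouse section binds to barcoded spots and each captured molecule is counted once by its molecular identifier (UMI). Several cells can lie over 1 spot, so no value here belongs to a single cell type. The 10 sections came from 7 tissues, with 4 neighbouring sections of NEJ146 and 1 each of NEJ638, NEJ654, NEJ677, NEJ634, NEJ687 and NEJ723.

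GEO's labels put every tissue under hepatoblastoma, a liver tumour of childhood, and a protocol text mentions both tumour and normal liver without assigning sections. The study's text names NEJ634, NEJ687, NEJ723 and NEJ146 as tumours of ABC-Myc mice. In these mice Cre driven by the albumin promoter removes a stop cassette ahead of human MYC. The same text describes the rest of its Visium tissues as healthy mouse livers, which it does not name. By elimination the healthy livers are NEJ638, NEJ654 and NEJ677. The labels do not give that assignment, so each tissue stayed a group of its own and tumour was not tested against liver. The mice were on a C57BL/6J background and were fed freely under a regular light and dark cycle. The study's text states both sexes for the ABC-Myc mice of its drug treatment. For Visium it describes anaesthesia of the ABC-Myc mouse with avertin. Perfusion with EDTA and then with collagenase IV came before the tissue was taken and frozen. The age of each animal and the time of day at collection were not given in the sources used here. The oncofetal genes Afp, Igf2, H19, Dlk1 and Gpc3, which mark hepatoblastoma, summed to 95.2 counts per 1000000 UMIs (CPM) in NEJ638, 10.9 CPM in NEJ654 and 10.4 CPM in NEJ677, against 3834 to 13632 CPM in the other 4 tissues. Afp, Igf2 and Dlk1 each followed that split, but Gpc3 was at 5.12 CPM in NEJ638 against 3.59 CPM in NEJ146 and 4.06 CPM in NEJ687, and H19 was at 80.2 CPM in NEJ638 against 11.96 CPM in NEJ723. The hepatocyte genes Alb, Apoa1, Ttr, Serpina1a and Apoh were present throughout, at a summed 19681 CPM in NEJ146 and 24677 to 30342 CPM in NEJ634, NEJ723 and NEJ687, and at 84055 to 117772 CPM in NEJ638, NEJ654 and NEJ677.

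The liver keeps blood glucose up between meals by breaking down glycogen and by making glucose from lactate, glycerol and amino acids. Glucagon, through cyclic AMP, and glucocorticoids, through their receptor, raise transcription of Pck1 and G6pc, while insulin lowers it, in part by keeping FOXO factors out of the nucleus. Ppp1r3b, Ppp1r3c and Ppp1r3g encode subunits that bring protein phosphatase 1 to glycogen, where it switches glycogen synthase (Gys2) on and glycogen phosphorylase (Pygl) off. In a liver lobule, gluconeogenesis is known to be strongest in periportal hepatocytes, next to the portal vein and hepatic artery, and to be lower in pericentral hepatocytes around the central vein.

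On the GRCm38 assembly, to which the submitters' processing notes tie 6 of the tissues under its other name mm10, Pck1 lies at chr2:173153048-173159273 on the plus strand, G6pc at chr11:101367561-101377903 on the plus strand and Fbp1 at chr13:62864753-62888282 on the minus strand. Ppp1r3b lies at chr8:35375739-35388139 on the plus strand, Ppp1r3c at chr19:36731731-36736653 on the minus strand and Ppp1r3g at chr13:35958839-35970388 on the plus strand. Gys2 lies at chr6:142422613-142473109 and Pygl at chr12:70190811-70231488, both on the minus strand. A RefSeq promoter entry was matched for 6 of the 8 genes.

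The promoters of Pck1, G6pc and Ppp1r3c are shown, the first 2 because these hormones are known to act on their transcription and Ppp1r3c for its level in NEJ654. Each runs 5′ to 3′ on the strand of its gene, ends before the first base of the GENCODE gene, and has motif matches in capitals. The motifs searched on both strands over the 250 bases before the RefSeq start were TGACGTCA and its part TGACG (cyclic AMP response element), TGTTTAC and TGTTTTG (forkhead sites), CACGTG (E-box) and TATAAA.
Pck1, chr2:173152823-173153047, plus strand: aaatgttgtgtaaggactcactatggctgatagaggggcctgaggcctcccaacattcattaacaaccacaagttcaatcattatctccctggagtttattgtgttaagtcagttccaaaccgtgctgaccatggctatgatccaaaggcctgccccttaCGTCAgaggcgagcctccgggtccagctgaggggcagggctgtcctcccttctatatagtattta
G6pc, chr11:101367466-101367560, plus strand: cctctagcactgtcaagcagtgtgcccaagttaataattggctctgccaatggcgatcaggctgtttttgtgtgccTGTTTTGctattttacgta
Ppp1r3c, chr19:36736654-36736854, minus strand: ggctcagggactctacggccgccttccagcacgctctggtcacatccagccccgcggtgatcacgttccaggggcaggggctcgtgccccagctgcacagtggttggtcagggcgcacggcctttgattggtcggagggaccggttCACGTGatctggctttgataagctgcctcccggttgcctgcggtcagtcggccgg
Pck1 held TGACG on the opposite strand, from base -90 to -86 counted from its RefSeq start. G6pc held TGTTTTG from -174 to -168 and, in the stretch not printed, TATAAA from -29 to -24. Ppp1r3c held CACGTG from -104 to -99. Of 32851 RefSeq promoters of the same length, 17.8% held TGACG, 5.56% TGTTTTG, 12.4% TATAAA and 6.02% CACGTG, while 1.55% held TGACGTCA and 3.17% TGTTTAC. The matches are given as a description.

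Between 1890 and 4878 spots per section were counted as tissue, with 39280329 to 117077925 UMIs in them and a median of 12134 to 28927 UMIs per spot. NEJ146 differed in the labelled RNA type, in the software of the processing notes and in how tissue spots were chosen (8000 or more UMIs, since no tissue calls were used there), and it had the highest mitochondrial share, 6.78% to 7.22% of UMIs against 2.46% to 3.86%. For NEJ146 these features and the tissue itself cannot be told apart. Xist, which is made from the inactive X chromosome of females, was at 38.9 to 63.9 CPM in NEJ146, NEJ634, NEJ638 and NEJ654 and at 1 to 3 UMIs in NEJ723, NEJ677 and NEJ687, where the Y-linked Ddx3y stood at 20.9 to 24.2 CPM. Neither pattern followed the split by oncofetal genes.

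The level of a gene is its CPM over tissue spots, with an exact Poisson 95% interval that covers counting error only, and for NEJ146 the mean and SD over 4 adjacent sections of 1 tissue. No test between tissues was made, since GEO's labels put the 7 tissues in no groups and 6 of them had 1 section, and levels are compared as a description. Below, beyond the spread means beyond these intervals and that SD, both of which leave out differences between animals. In whole spots, fewer hepatocytes and less RNA per hepatocyte cannot be told apart. Of the 8 genes, 7 had a mean of 10 or more CPM over the tissues. Of these 7, 5 were higher in all of NEJ638, NEJ654 and NEJ677 than in any of the other 4 tissues (Pck1, Fbp1, Ppp1r3b, Gys2 and Pygl). Of all 8021 genes at that mean, 18.1% lay above in the same way, and 44.1% lay below in all 3, as did none of the 7. The range over the tissues was past 4-fold for 5 of the 7 genes, G6pc, Pck1, Fbp1, Ppp1r3c and Ppp1r3b, against 22.8% of all genes. NEJ723 had the lowest level for 6 of the 7, against 15.1% of all genes. For Pygl, which is among the 6, NEJ723 and NEJ146 did not differ beyond the spread. Markers of blood cells moved with the same split: 6 erythroid genes (Gata1, Alas2, Hbb-bt, Hbb-bs, Hba-a2 and Hba-a1) summed to 96.5 to 252 CPM in NEJ638, NEJ654 and NEJ677 and to 921 to 9459 CPM in the other 4, with 4 of the 5 at 10 or more CPM lower in all 3. The neutrophil genes Ngp, Camp, Ltf, S100a8 and S100a9 summed to 7.48 to 18.1 CPM against 329 to 1045 CPM, with 5 of 5 lower. Their part in the levels of the 8 genes was not tested.

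**Figure D1:**
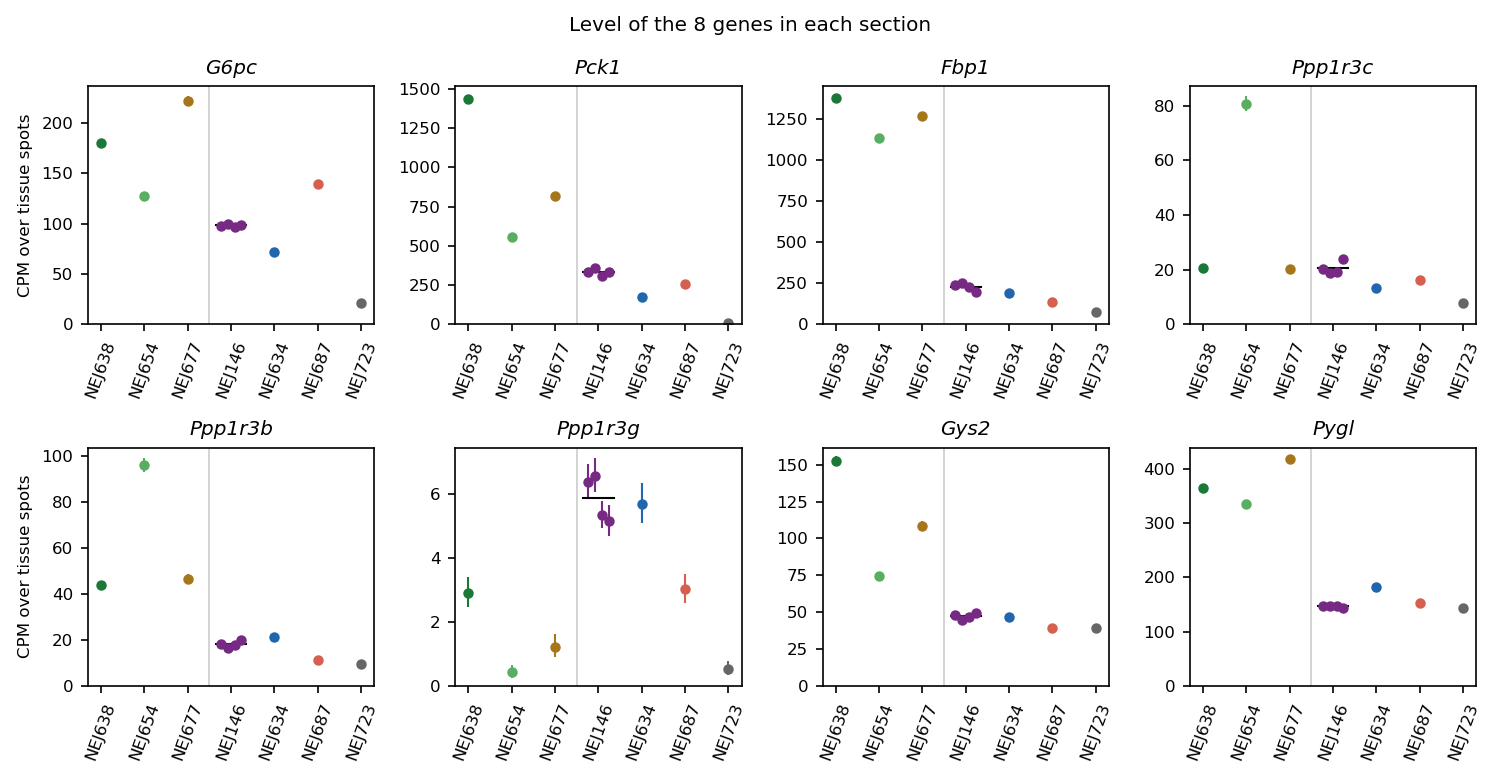
Level of each of the 8 genes in CPM (vertical axis, from 0) for each section (points) of the 7 tissues (horizontal axis). Bars are exact Poisson 95% intervals, the black line is the mean of the 4 NEJ146 sections, and the grey line parts NEJ638, NEJ654 and NEJ677 from the other 4 tissues. Fbp1 stands at 1133 CPM or more left of the line and at 250.3 CPM or less right of it.

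Pck1 encodes the cytosolic phosphoenolpyruvate carboxykinase, which turns oxaloacetate into phosphoenolpyruvate in gluconeogenesis. It was at 1437 CPM in NEJ638, 818 CPM in NEJ677 and 555 CPM in NEJ654. The 4 sections of NEJ146 were at 333, 358, 306 and 331 CPM (mean 332 ± 21.2 SD, n = 4), NEJ687 at 258 CPM, NEJ634 at 177 CPM and NEJ723 at 10.95 CPM. The order ran NEJ638, NEJ677, NEJ654, NEJ146, NEJ687, NEJ634 and NEJ723, and every pair of neighbours lay further apart than the counting intervals and than the spread of the NEJ146 sections. On the log2(CPM + 1) scale the range was 6.91, a 120-fold difference, of which 27.9-fold lay among NEJ146, NEJ687, NEJ634 and NEJ723 and 2.59-fold among the other 3.

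Fbp1, the fructose bisphosphatase of the pathway, had the widest gap between the 2 sets of tissues. It was at 1375 CPM in NEJ638, 1271 CPM in NEJ677 and 1133 CPM in NEJ654. NEJ146 had 241, 250.3, 225 and 194 CPM (mean 228 ± 24.6 SD, n = 4), NEJ634 had 188 CPM, NEJ687 135 CPM and NEJ723 73.6 CPM. The lowest of the 3 upper tissues exceeded the highest of the other 4 by 4.96-fold, while NEJ638 and NEJ677 did not differ beyond the spread of the NEJ146 sections. For Pck1 the same gap was 1.67-fold.

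G6pc encodes the catalytic subunit of the phosphatase that releases free glucose. It was at 222 CPM in NEJ677, 180.3 CPM in NEJ638, 139 CPM in NEJ687 and 128 CPM in NEJ654. NEJ146 had 98.1, 100.3, 96.9 and 99.2 CPM (mean 98.6 ± 1.43 SD, n = 4), NEJ634 had 71.7 CPM and NEJ723 21.6 CPM. NEJ687 lay above NEJ654, beyond both intervals, so the 2 sets of tissues overlapped for G6pc, although the same NEJ687 section had the third lowest Pck1. With median-of-ratios scaling in place of CPM this order turned, and all 3 of NEJ638, NEJ654 and NEJ677 stood above NEJ687.

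The glycogen enzymes varied less. Gys2 was at 152 CPM in NEJ638, 109 CPM in NEJ677 and 74.6 CPM in NEJ654, against 47.2 ± 2.09 CPM (SD, n = 4) in NEJ146, 46.7 CPM in NEJ634 and 39.6 CPM in both NEJ723 and NEJ687. Pygl was at 418, 363 and 335 CPM in NEJ677, NEJ638 and NEJ654, against 182 CPM in NEJ634, 153 CPM in NEJ687, 146.3 ± 1.72 CPM (SD, n = 4) in NEJ146 and 143 CPM in NEJ723. Neither overlapped between the 2 sets, with gaps of 1.57-fold for Gys2 and 1.84-fold for Pygl. NEJ146 and NEJ634 did not differ beyond their spread in Gys2, nor did NEJ723 and NEJ687. In Pygl, NEJ146 and NEJ723 did not differ beyond it. NEJ723 thus held Pygl and Gys2 within 1.27-fold and 1.19-fold of the other oncofetal-positive tissues, while its Pck1 was the lowest by more than an order of magnitude.

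Relative to the summed hepatocyte genes in place of all UMIs, 0 of the 5 members had all of NEJ638, NEJ654 and NEJ677 above the other 4 tissues. Since the hepatocyte sum was itself higher in those 3, this scaling shifted the median gene by -1.75 to -1.26 on the log2 scale there and by 0.21 to 0.87 in the other 4. Alb was the largest part of that sum in those 3, at 51663 to 85700 CPM against 7839 to 13131 CPM in the other 4. Apoh did not follow the split, at 1934 CPM in NEJ687 against 1812 CPM in NEJ638 and 1733 CPM in NEJ677. Of the 1455 genes of all 8021 that lay above in CPM, 93 still did, or 6.39%. For Fbp1 the rescaled level was then 529 in NEJ677, 497 in NEJ638, 408 in NEJ146, 337 in NEJ654, 217 in NEJ634, 192 in NEJ687 and 96.1 in NEJ723. Pck1 was then highest in NEJ146, at 604 against 519 in NEJ638 and 165 in NEJ654.

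Ppp1r3c, which encodes the glycogen-targeting subunit also called PTG, had another order in CPM. NEJ654 was at 80.6 CPM (77.9 to 83.4), and every other tissue lay between 7.93 and 20.6 CPM: NEJ638 at 20.6 CPM, NEJ146 at a mean of 20.5 ± 2.32 CPM (SD, n = 4; sections at 20.1, 18.9, 19.1 and 23.9 CPM), NEJ677 at 20.4 CPM, NEJ687 at 16.2 CPM, NEJ634 at 13.3 CPM and NEJ723 at 7.93 CPM. NEJ638, NEJ146 and NEJ677 did not differ beyond their spread. With median-of-ratios scaling NEJ638 (21.6) and NEJ677 (23.96) stood above NEJ146 (21.2), so that all 3 of NEJ638, NEJ654 and NEJ677 lay above the other 4, by 0.0218 on the log2 scale, less than the spread of the NEJ146 sections. Ppp1r3b, the subunit named for liver, was also highest in NEJ654, at 96.1 CPM, followed by NEJ677 at 46.4 and NEJ638 at 43.8 CPM, which did not differ beyond the spread, and then NEJ634 at 21.2, NEJ146 at 18.0 ± 1.41 (SD, n = 4), NEJ687 at 11.5 and NEJ723 at 9.46 CPM. The excess of NEJ654 over the next tissue was 3.92-fold for Ppp1r3c and 2.07-fold for Ppp1r3b. Highest in NEJ654 by more than 2-fold were 2 of the 7 genes and 0.15% of all genes, which is 12 genes. That threshold was set after the values had been seen, so the count is a description. Relative to the summed hepatocyte genes, Ppp1r3c was highest in NEJ146 (37.9), ahead of NEJ654 (23.96) and NEJ687 (23.0), with NEJ677 at 8.50 and NEJ638 at 7.43.

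The other 10 of those 12 genes were Cyp2b13, Slc22a26, Hamp2, Cyp2b10, Paxx, Egr1, Cyp3a44, Id3, Cyp2b9 and Oat. Cyp2b13, Cyp2b9 and Cyp3a44 are known for higher expression in female mouse liver. NEJ654 and NEJ638 both expressed Xist, with Cyp2b13 at 157 and 30.8 CPM and Ppp1r3c at 80.6 and 20.6 CPM. In NEJ677, which was all but without Xist, Ppp1r3c was at 20.4 CPM. Hamp2 had another order, at 1820 CPM in NEJ654, 594 CPM in NEJ677 and 39.3 CPM in NEJ638. What part sex has in the level of Ppp1r3c was not tested.

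Ppp1r3g, the scarcest of the set, had an order of its own. It was highest in NEJ146, at 6.40, 6.59, 5.36 and 5.17 CPM (mean 5.88 ± 0.719 SD, n = 4), and in NEJ634, at 5.71 CPM (5.11 to 6.37), which did not differ beyond the spread. NEJ687 had 3.03 CPM and NEJ638 2.91 CPM, again within the spread, followed by NEJ677 at 1.22 CPM. NEJ723, at 0.527 CPM (23 UMIs), and NEJ654, at 0.424 CPM (18 UMIs), were lowest and did not differ beyond the spread. With a mean under 10 CPM the gene entered none of the counts above.

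Clock genes and genes that respond to food were read beside these levels, since transcription of Pck1, G6pc and the glycogen-targeting subunits is known to vary with meals and time of day. Of 12 clock genes, 7 had a mean of 10 or more CPM, and 5 of these ranged past 4-fold over the tissues (Per1, Per3, Nr1d1, Dbp and Tef), against 22.8% of all genes. Dbp, an output of the clock, was at 209 CPM in NEJ638, 48.2 CPM in NEJ677 and 2.99 CPM in NEJ654. Tef was at 146.1, 48.4 and 27.3 CPM and Per3 at 51.0, 5.58 and 1.39 CPM in the same order of tissues. Arntl, which peaks in opposite phase to Dbp, was at 18.8 CPM in NEJ654, 5.24 CPM in NEJ677 and 1.41 CPM in NEJ638. Nr1d1 had another order, at 34.0 CPM in NEJ677, 31.4 CPM in NEJ638 and 11.1 CPM in NEJ654, and Per1 was at 33.3 CPM in NEJ638 and at 3.77 and 3.62 CPM in NEJ677 and NEJ654. Arntl, with a mean under 10 CPM, was outside the count of 7. Of the 7 members, Pck1, Fbp1 and Gys2 were highest of the 3 in NEJ638, Ppp1r3c and Ppp1r3b in NEJ654, and G6pc and Pygl in NEJ677. Of all genes, 61.2% were highest of the 3 in NEJ638, 21.6% in NEJ654 and 17.2% in NEJ677. For Fbp1, NEJ638 and NEJ677 did not differ beyond the spread. In the other 4 tissues Dbp was at 4.37 to 18.5 CPM. The part of sampling time in the levels of the 8 genes was not tested.

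Of 14 listed genes raised by fasting 10 had a mean of 10 or more CPM, and among NEJ638, NEJ654 and NEJ677 the highest tissue was NEJ638 for 4, NEJ654 for 2 and NEJ677 for 4. Over all 8021 genes the highest of the 3 was NEJ638 for 61.2%, NEJ654 for 21.6% and NEJ677 for 17.2%. Tat, a tyrosine aminotransferase induced by glucocorticoids, was at 801 CPM in NEJ638, 392 CPM in NEJ654 and 251 CPM in NEJ677. Cyp4a14 and Cyp4a10, targets of PPAR alpha, were instead highest in NEJ654, at 761 and 628 CPM, and lowest of the 3 in NEJ638, at 327 and 284 CPM. Igfbp1 was at 51.7 CPM in NEJ654, 197 CPM in NEJ638 and 204 CPM in NEJ677, against 439 to 1110 CPM in the other 4 tissues.

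Of 10 listed genes raised by feeding 9 had a mean of 10 or more CPM, with the highest level of the 3 tissues in NEJ638 for 6, against the 61.2% of all genes, in NEJ654 for 0 and in NEJ677 for 3. Thrsp was at 1215 CPM in NEJ638, 180.5 CPM in NEJ677 and 86.3 CPM in NEJ654. Scd1 ran the other way, at 2293 CPM in NEJ677, 1549 CPM in NEJ654 and 619 CPM in NEJ638. Pklr, the liver pyruvate kinase, and Me1, the cytosolic malic enzyme, were also highest in NEJ677, at 60.3 and 158 CPM, against 57.3 and 104 CPM in NEJ638 and 36.9 and 92.5 CPM in NEJ654. NEJ638 had the highest Pck1 and Tat of the 7 tissues together with the highest Thrsp and Srebf1, the latter at 231 CPM there and 47.0 CPM in NEJ677.

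**Figure D2:**
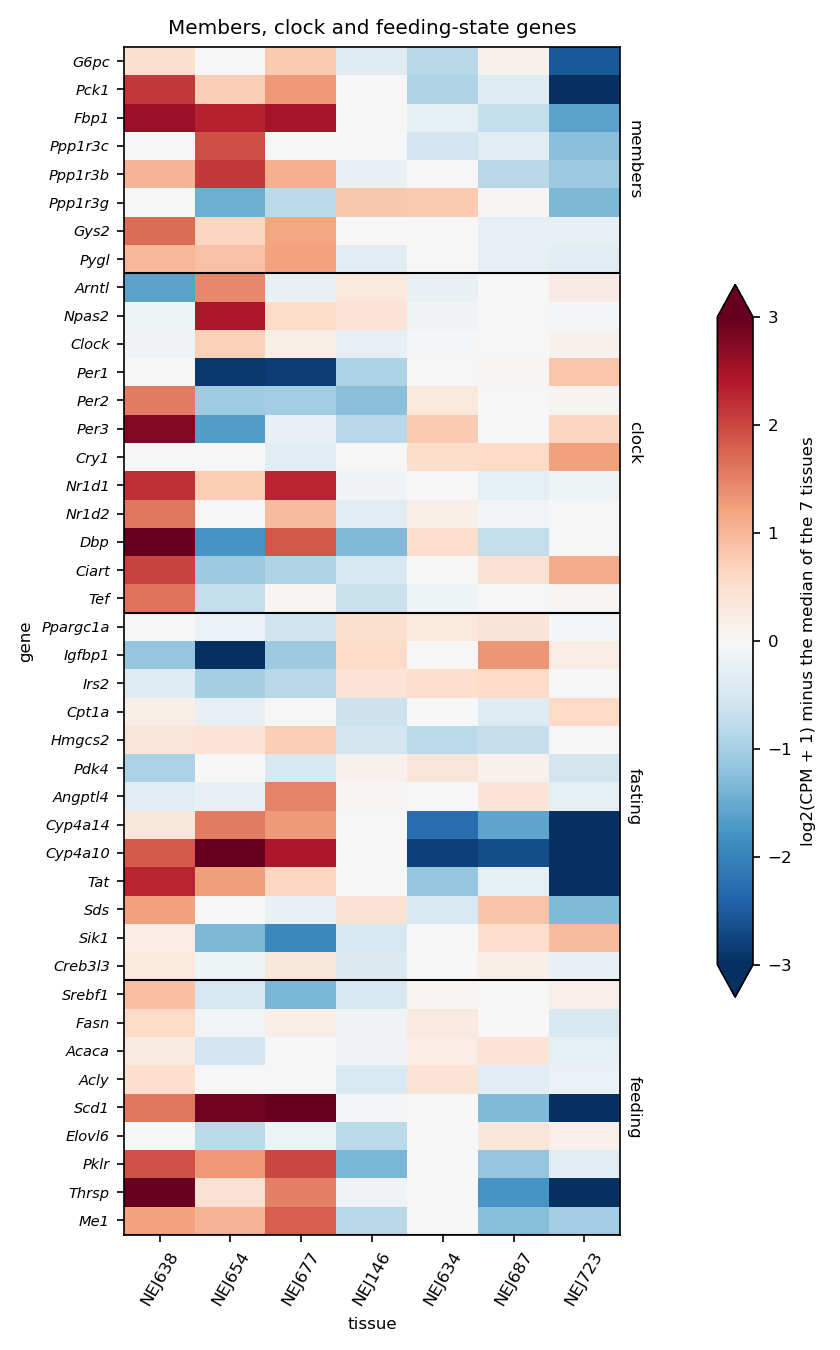
Colour gives log2(CPM + 1) minus the median of the 7 tissues (columns) for the 8 genes and for clock, fasting and feeding genes that reached 5 CPM in a tissue (rows). Values past 3 in either direction take the end colours, and Ppp1r3c and Arntl are raised in NEJ654 while Dbp and Thrsp are raised in NEJ638.

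Zonation, the change of expression between the 2 ends of the lobule, was read in NEJ638, NEJ654 and NEJ677. Spots with 500 or more UMIs were ordered by the ratio of 4 periportal landmarks (Cyp2f2, Hal, Hsd17b13 and Ass1) to 5 pericentral ones (Glul, Cyp2e1, Cyp1a2, Oat and Slc1a2) and cut into 5 classes of equal size. None of the 8 genes entered the score. Of 6 periportal genes outside it, 6 were past 1.5-fold higher in the periportal class in all 3 tissues, and all 4 pericentral genes with enough counts were past 1.5-fold lower. Ratios of the periportal to the pericentral class carry exact binomial 95% intervals over UMIs, which leave out differences between animals, and 3 tissues cannot reach a p below 0.25 in a sign-flip test, so each tissue is described.

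Pck1 had the steepest gradient of the 8 genes. It rose over the classes from 810 to 1221, 1515, 1838 and 1990 CPM in NEJ638. In NEJ654 it rose from 263 to 414, 542, 676 and 909 CPM, and in NEJ677 from 473 to 641, 788, 973 and 1205 CPM. The log2 ratio was 1.296 (1.26 to 1.33) in NEJ638, 1.79 (1.727 to 1.85) in NEJ654 and 1.35 (1.297 to 1.40) in NEJ677, or 2.46-fold, 3.46-fold and 2.55-fold. Of the 3, the tissue with the least Pck1 overall had the steepest gradient, and its periportal class, at 909 CPM, lay near the 810 CPM of the pericentral class of NEJ638.

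G6pc and Fbp1 followed with shallower gradients. G6pc was 1.51-fold higher in the periportal class of NEJ638 (136 against 205 CPM), 1.90-fold in NEJ654 (94.1 against 178 CPM) and 1.66-fold in NEJ677 (175 against 289 CPM). Fbp1 was 1.56-fold higher in NEJ638 (1086 against 1691 CPM), 1.61-fold in NEJ654 (876 against 1412 CPM) and 1.79-fold in NEJ677 (912 against 1631 CPM). Past 1.5-fold toward the periportal side were 3 of the 7 genes in each tissue, against 3.0% of all genes with 10 or more CPM in NEJ638, 2.72% in NEJ654 and 3.11% in NEJ677. In all 3 tissues at once, Pck1, G6pc and Fbp1 were among 89 such genes of 6514, or 1.37%. With 3 classes of spots in place of 5 Pck1 alone kept the call in all 3 tissues, since G6pc fell under 1.5-fold in NEJ638 (log2 ratio 0.49) and Fbp1 in NEJ638 (0.53) and NEJ654 (0.58). Without Cyp2e1 and Cyp2f2 in the score G6pc (0.51) and Fbp1 (0.58) fell under it in NEJ638, as did G6pc (0.52) with the pericentral landmarks alone.

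None of Pygl, Gys2, Ppp1r3b and Ppp1r3c was past 1.5-fold in either direction in any of the 3 tissues, although Ppp1r3b in NEJ677 was with 2 other scores (log2 ratios 0.61 and 0.74). Pygl had log2 ratios of -0.04 (-0.10 to 0.02), -0.01 (-0.08 to 0.06) and -0.05 (-0.12 to 0.01) in NEJ638, NEJ654 and NEJ677. Gys2 had 0.23 (0.13 to 0.32), 0.10 (-0.04 to 0.25) and 0.13 (-0.00268 to 0.26). Ppp1r3b had 0.14, 0.28 and 0.52 and was lowest in the pericentral class of each tissue, at 39.3, 82.3 and 33.8 CPM. Ppp1r3c had -0.42 (-0.70 to -0.14), -0.03 (-0.18 to 0.11) and -0.25 (-0.55 to 0.06), and after thinning to 5000 UMIs the value in NEJ638 was 0.0489. In NEJ654, where Ppp1r3c was high, all classes lay between 77.4 and 85.6 CPM. Toward the pericentral side lay 0 of the 7 genes past 1.5-fold, as did 3.11%, 4.68% and 6.1% of all genes in NEJ638, NEJ654 and NEJ677 and 1.86% in all 3. Ppp1r3g, with 3 to 30 UMIs in an end class, was too scarce for that count and had intervals that spanned 0 in each tissue.

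**Figure D3:**
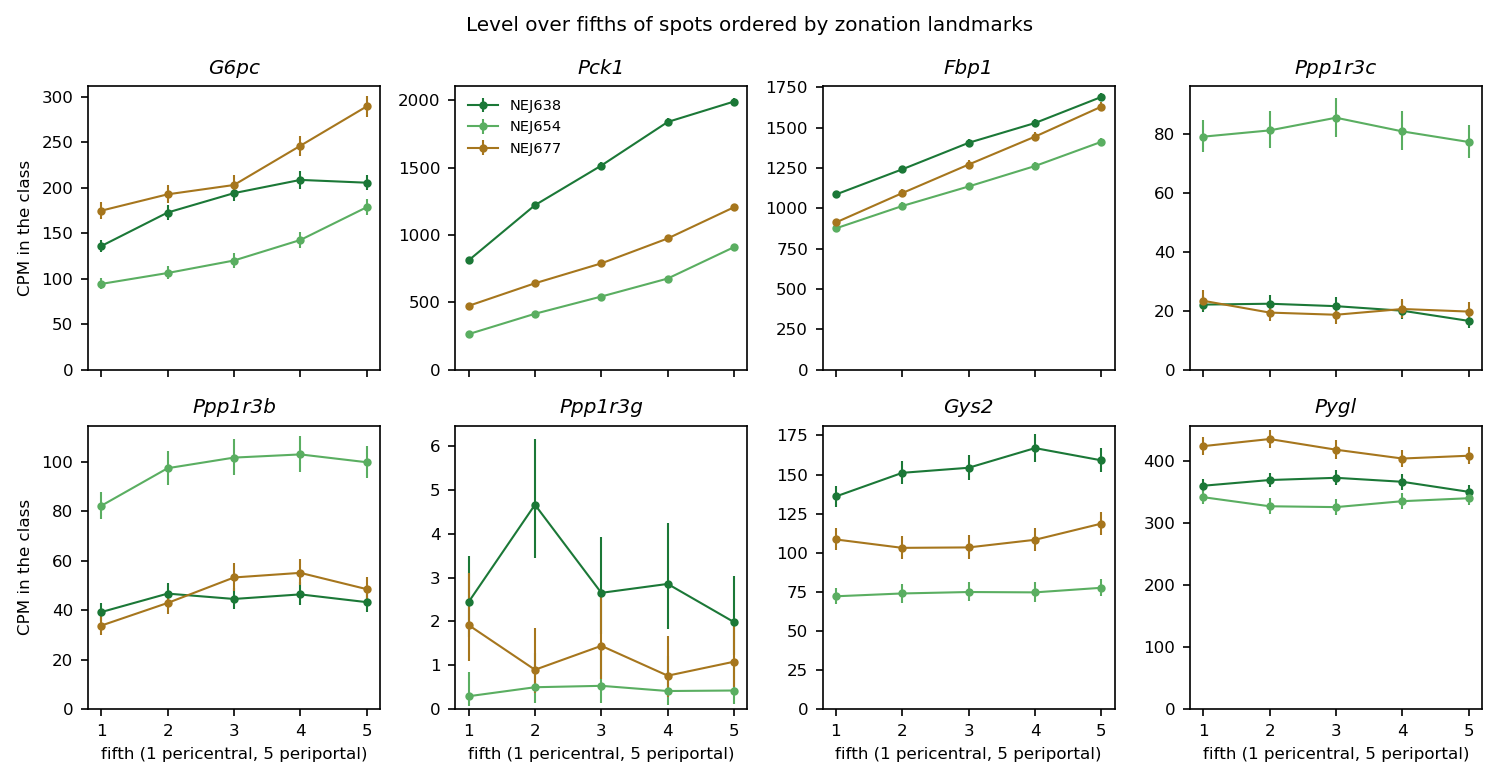
CPM of the 8 genes (vertical axis, from 0) in 5 classes of spots from pericentral (1) to periportal (5) in NEJ638, NEJ654 and NEJ677, with exact Poisson 95% intervals. Pck1, G6pc and Fbp1 climb from the first to the last class in all 3 tissues, apart from G6pc in NEJ638 between the 2 last classes, while Pygl stays between 326 and 436 CPM.

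Spot by spot, the same genes went together. Partial Spearman correlations with UMIs per spot removed, given as a description over spots that share a library, were 0.41, 0.47 and 0.50 between Pck1 and Fbp1 in NEJ638 (3380 spots), NEJ654 (2405 spots) and NEJ677 (2527 spots). Pck1 and G6pc correlated at 0.25, 0.27 and 0.28, and Pck1 correlated with the summed periportal landmarks at 0.67, 0.72 and 0.67 and with the pericentral ones at -0.59, -0.59 and -0.58. With Pygl, Pck1 correlated at 0.0649, 0.0429 and 0.0386.

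Over spots, pericentral and periportal landmarks correlated at -0.77, -0.72 and -0.76 in NEJ638, NEJ654 and NEJ677. In NEJ146, NEJ634, NEJ687 and NEJ723 the values were -0.07 to 0.27, and there the landmark ratio was not taken to order spots into lobules. Inside these 4 tissues spots were cut into 5 classes by the share of UMIs from the same 9 landmark enzymes. The share had another make-up in NEJ638, NEJ654 and NEJ677, where pericentral landmarks summed to 4185 to 6280 CPM and periportal ones to 2729 to 3097 CPM. In the other 4 tissues they summed to 81.4 to 479 CPM and 1233 to 2071 CPM. The classes of the 2 sets are therefore unlike, and their directions cannot be set against each other. Split by this share, NEJ638, NEJ654 and NEJ677 gave log2 ratios of the highest to the lowest class of -0.87, -1.48 and -1.02 for Pck1. The ratios were -0.33, -0.53 and -0.56 for Fbp1 and -0.41, -0.59 and -0.42 for G6pc, and the difference between tissues was not tested. In NEJ146, Pck1 rose from 133 ± 25.4 CPM in the lowest class to 830.0 ± 40.1 CPM in the highest (SD, n = 4 sections), with most of the rise between the last 2 classes. The log2 ratios of the 4 sections were 2.78, 2.81, 2.81 and 2.22 (mean 2.66 ± 0.29 SD, 6.30-fold). The highest class thus reached a Pck1 level near that of NEJ677 as a whole. Ppp1r3g rose alike, with log2 ratios of 2.67, 2.99, 2.58 and 2.15 (mean 2.60 ± 0.35 SD) and 217 to 350 UMIs in the highest class. Fbp1 rose by 1.17, 1.16, 1.22 and 0.79 and G6pc by 0.63, 0.87, 0.74 and 0.55 on the log2 scale. Pygl (mean 0.06 ± 0.10 SD), Gys2 (0.09 ± 0.14), Ppp1r3b (-0.02 ± 0.21) and Ppp1r3c (0.10 ± 0.19) did not move beyond their spread over sections. Past 1.5-fold up were 3 of the 7 genes with 10 or more CPM, against 6.91% of all genes, and none fell past 1.5-fold, as did 9.65%. G6pc, with a mean of 0.70, was under 1.5-fold with 3 classes (0.47) and after each spot was thinned to 5000 UMIs (0.53), which left 2 of the 7.

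In NEJ634, Pck1 rose over the classes from 36.3 to 39.2, 64.7, 157 and 510 CPM, a log2 ratio of 3.81 (3.65 to 3.98) or 14.04-fold. G6pc rose from 29.3 to 143 CPM (log2 ratio 2.28, 2.10 to 2.48), Fbp1 from 95.3 to 310 CPM (1.70, 1.59 to 1.81) and Ppp1r3g from 2.23 to 12.5 CPM (2.48, 1.81 to 3.23). Of the 4 glycogen genes with enough counts, Gys2 rose from 24.8 to 72.9 CPM (1.55, 1.34 to 1.77) and Ppp1r3c from 10.0 to 16.3 CPM (0.70, 0.34 to 1.07), while Pygl (0.55) and Ppp1r3b (0.47) were under 1.5-fold. Past 1.5-fold up were 5 of the 7, against 7.79% of all genes, and none down, against 18.5%. Ppp1r3c fell under 1.5-fold with 3 classes (0.42) and after thinning (0.16), which left 4 of the 7.

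In NEJ687 only Pck1 of the 7 passed 1.5-fold, from 196 to 425 CPM (log2 ratio 1.12, 1.04 to 1.20), against 1.36% of all genes, and none fell, against 0.38%. G6pc was flat there, at 133 to 145 CPM over the classes, and Fbp1 had a log2 ratio of 0.56 (0.45 to 0.66). In NEJ723, Pck1 was at 10.4 CPM in the lowest class and 13.1 CPM in the highest (0.34, -0.10 to 0.78), while G6pc went from 16.9 to 29.3 CPM (0.79, 0.48 to 1.11). G6pc was the 1 gene past 1.5-fold of the 5 with 10 or more CPM in NEJ723, against 0.336% of all genes, and none fell, against 0.396%. After thinning its log2 ratio was 0.55, which ended that call.

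**Figure D4:**
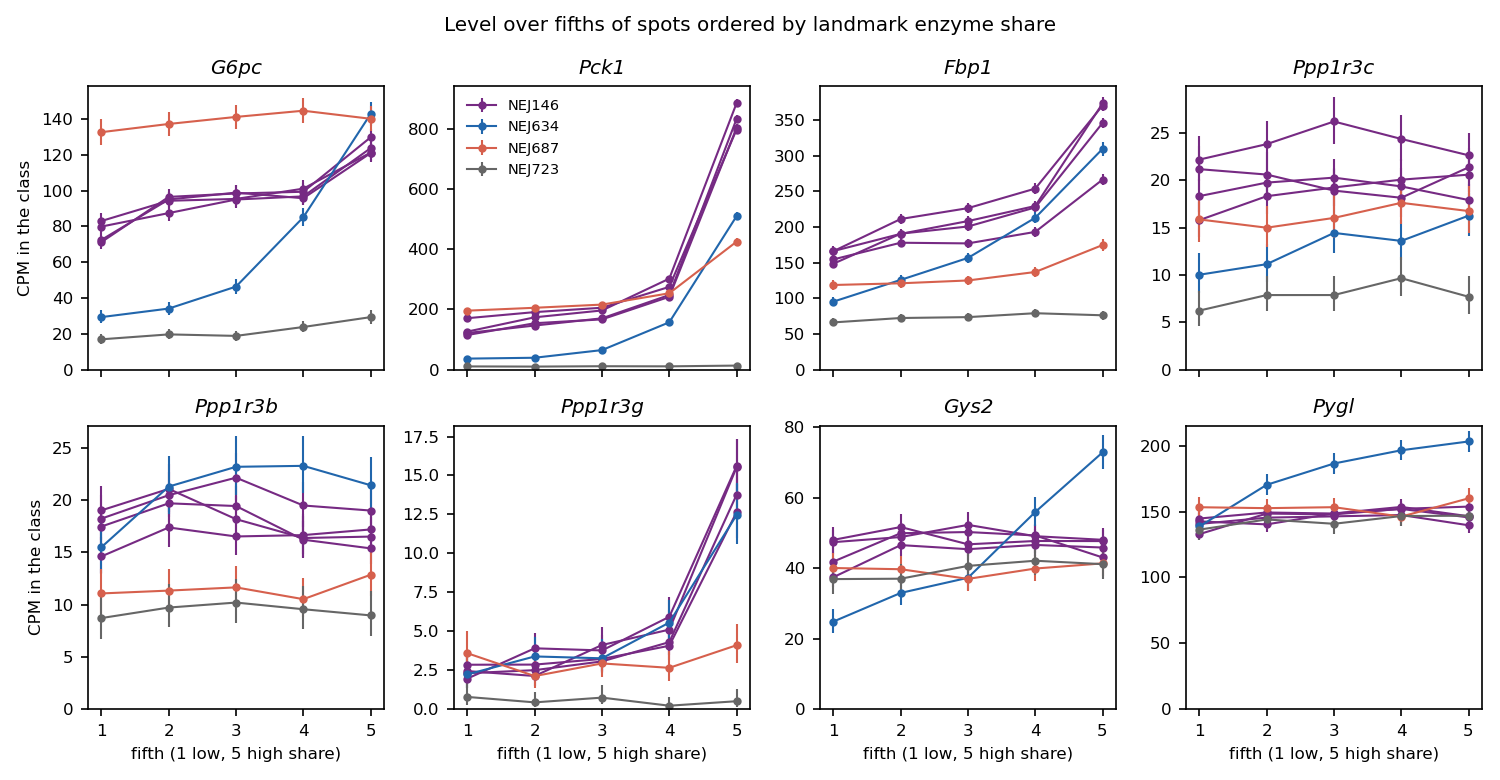
CPM of the 8 genes (vertical axis, from 0) in 5 classes of spots from low (1) to high (5) landmark enzyme share in NEJ146 (4 lines, 1 per section), NEJ634, NEJ687 and NEJ723, with exact Poisson 95% intervals. Pck1 and Ppp1r3g climb steeply into the last class of NEJ146 and NEJ634, and Pygl stays between 133 and 203 CPM.

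Other genes changed over the same classes. In NEJ146, Alb rose by 1.45 ± 0.15 on the log2 scale (SD, n = 4), Hbb-bs, a globin of red blood cells, fell by 2.202 ± 0.16 and Afp by 1.63 ± 0.49. In NEJ634, Alb rose by 0.28 and Hbb-bs by 0.48, Afp fell by 0.52 and H19 rose by 2.25, and the Kupffer cell genes Clec4f, Vsig4 and Cd5l rose by 2.43, 2.57 and 2.16. Their part in the gradients of the 8 genes was not tested. The genes named come from longer lists, and changes of the other listed genes, such as the Kupffer cell gene Adgre1, are not given. The values are therefore those of single genes, and no shift of a cell type is read from them. Median UMIs per spot in the lowest and highest classes were 22465 and 32955 in NEJ634. In the 4 sections of NEJ146 they were 15890 and 22829, 18671 and 23891, 23312 and 24194, and 18054 and 20128.

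When NEJ146 spots were instead cut into 5 classes by their own Pck1 share, a split chosen after the values had been seen, Ppp1r3g rose with log2 ratios of 2.36, 2.25, 2.12 and 1.85, Fbp1 by 1.21, 1.19, 1.24 and 0.92 and G6pc by 0.64, 0.85, 0.67 and 0.52. In NEJ638, NEJ654 and NEJ677 the same split gave G6pc 0.79, 0.84 and 0.68 and Fbp1 0.59, 0.59 and 0.65, while for Ppp1r3g the intervals spanned 0, with 3 to 25 UMIs in an end class. In NEJ687 it gave Ppp1r3g 0.54 (-0.14 to 1.24, with 30 and 50 UMIs), G6pc 0.28 and Fbp1 0.67. The split was made where the median spot held 2 or more Pck1 UMIs, which left out NEJ634 (median 1) and NEJ723 (0). That median was 2 to 3 in NEJ146, 2 in NEJ687, 19 in NEJ638, 8 in NEJ654 and 11 in NEJ677, so the classes carry unequal counting noise. Landmarks found with Pck1 in these classes are given by tissue, and the difference between tissues was not tested. In NEJ146 the Pck1-rich class held more of both the periportal Cyp2f2 (mean log2 ratio 4.05 ± 0.31, SD, n = 4) and the pericentral Cyp2e1 (2.22 ± 0.15). In NEJ638, NEJ654 and NEJ677 it held more Cyp2f2 (2.05, 1.96 and 1.82) and less Cyp2e1 (-1.79, -1.81 and -2.12).

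**Figure D5:**
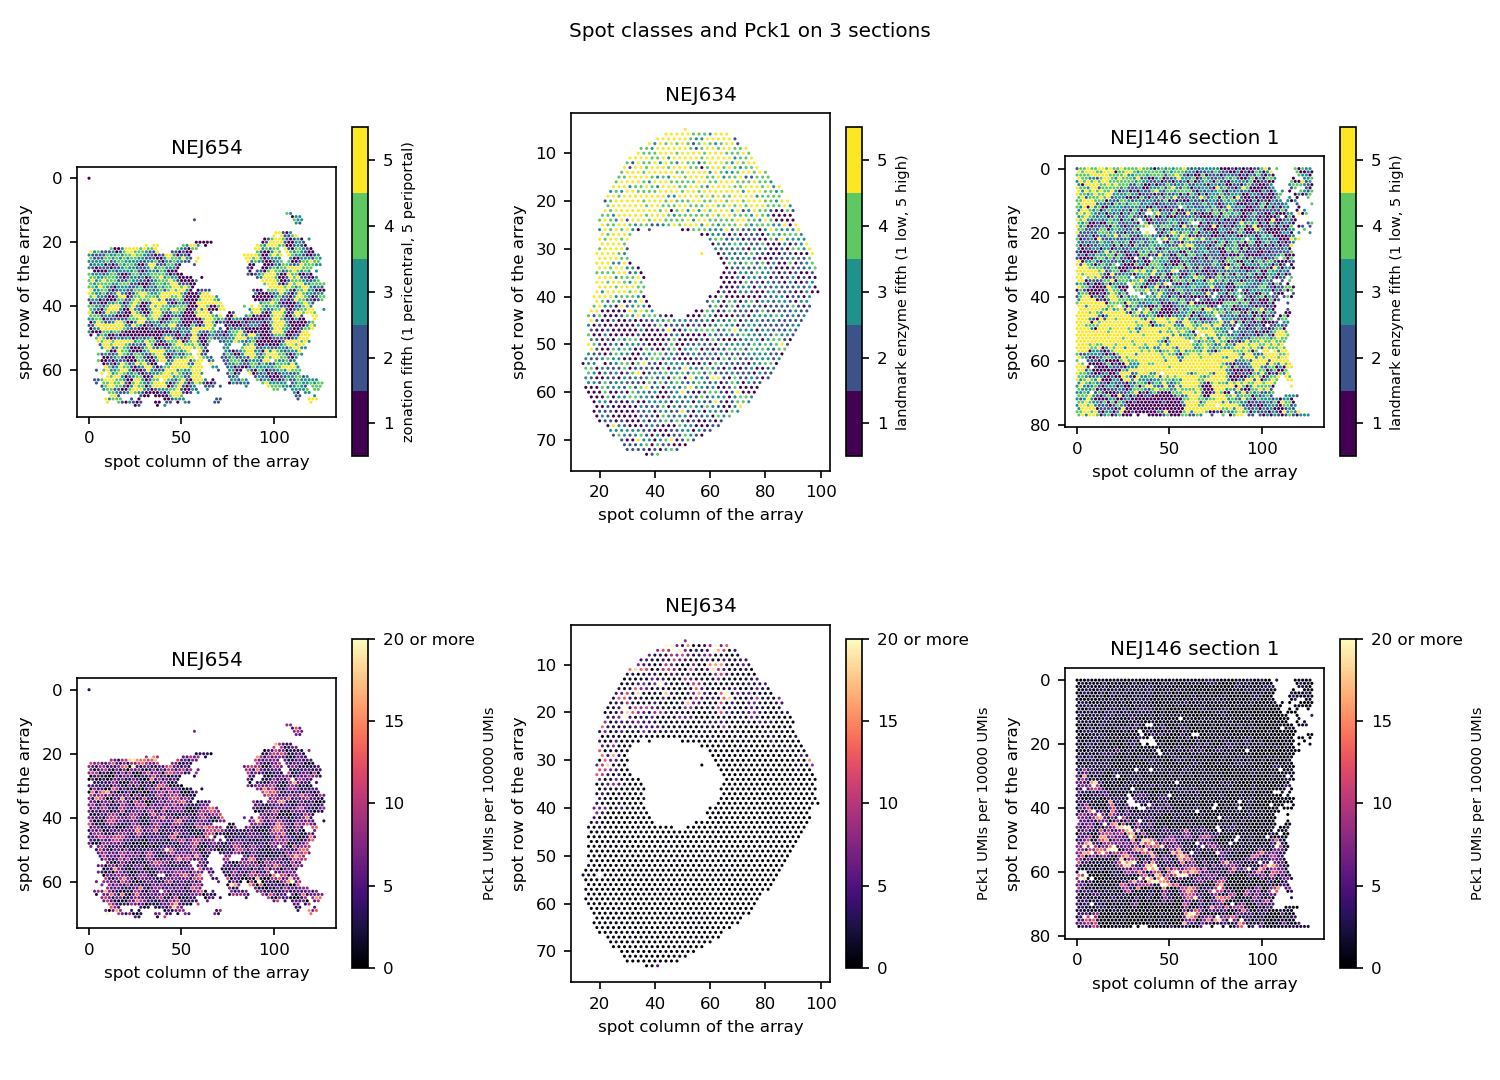
Spots of NEJ654, NEJ634 and NEJ146 section 1 at their row and column on the slide, coloured by class (top, by landmark ratio in NEJ654 and by landmark enzyme share in the others) and by Pck1 UMIs per 10000 UMIs (bottom, 20 or more in the end colour). In NEJ654 Pck1 is spread over the whole section, and in NEJ634 and NEJ146 it is concentrated in parts of the section.

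On the slide, Pck1 in NEJ634 and NEJ146 was concentrated in parts of the section. The Pck1 share of horizontally neighbouring spots correlated at 0.692 in NEJ634 (1799 pairs), 0.554 in section 1 of NEJ146 (4268 pairs) and 0.295 in NEJ654 (2219 pairs), given as a description. Positions for NEJ146 were those of the same barcodes on the other slides, and all 4454 spots had one.

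Of 17 further gluconeogenesis genes 15 had a mean of 10 or more CPM. Of these, 4 were higher in all of NEJ638, NEJ654 and NEJ677 than in the other 4 tissues and 8 were lower, against 18.1% and 44.1% of all genes. Past 4-fold were 4, Tat, Gpt, Sds and Pck2, against 22.8%. Pck2, the mitochondrial counterpart of Pck1, was at 120.0 CPM in NEJ723, 49.7 CPM in NEJ634, 28.8 CPM in NEJ687, 17.2 ± 1.43 CPM (SD, n = 4) in NEJ146 and 5.91 to 9.09 CPM in the other 3, so the tissue with the least Pck1 had the most Pck2. Gpt, an alanine aminotransferase, was at 449 CPM in NEJ638 and 68.7 CPM in NEJ723.

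Of 25 further glycogen genes 16 had a mean of 10 or more CPM, 3 of them higher in all of NEJ638, NEJ654 and NEJ677 and 7 lower, near the shares of all genes (18.1% and 44.1%). Past 4-fold were 2 of the 16, against 22.8%. These were Ugp2, which makes UDP-glucose for glycogen, at 220 to 236 CPM in NEJ638, NEJ654 and NEJ677 and 33.8 to 78.3 CPM elsewhere, and Pygb, the brain form of glycogen phosphorylase, at 6.07 to 13.99 CPM and 29.9 to 63.3 CPM. Between the 2 sets of tissues Pygb thus ran against Pygl, as Pck2 did against Pck1. Like Pygb and Pck2, 44.1% of all genes were lower in all of NEJ638, NEJ654 and NEJ677. Of 3 genes of sugar uptake and phosphorylation Khk ranged past 4-fold, and of 11 hormone signalling genes Cebpa and Foxa2 did. Foxa2, a forkhead factor of hepatocytes, was at 68.4 CPM in NEJ654, 40.7 CPM in NEJ638, 25.4 CPM in NEJ677 and 11.5 to 14.6 CPM in the other 4.

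Over the zonation classes, 13 gluconeogenesis genes had 10 or more CPM in each of NEJ638, NEJ654 and NEJ677. Of these, 2 were past 1.5-fold periportal in all 3 tissues, against 1.37% of all 6514 genes at that level. They were Sds, a serine dehydratase (log2 ratios 2.82, 2.70 and 2.82), and Got1, an aspartate aminotransferase (1.18, 0.79 and 1.52). Sds is also 1 of the 6 periportal genes used above to check the order of the classes, so Got1 alone was not listed for its zonation. None of 14 glycogen genes was periportal in all 3, against 1.37% of all genes. Stbd1, which tethers glycogen to membranes, was pericentral (-0.61, -0.62 and -0.75), as were 1.86% of all genes. Of 3 sugar uptake genes and 10 hormone signalling genes none passed in all 3, near these shares.

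By a fixed rule, the 3 genes most like each of Pck1, G6pc and Ppp1r3c over the 7 tissues were named by Pearson's r of log2(CPM + 1) among 8021 genes, as a description over 7 values. For Pck1 these were St3gal4 (0.987), Tat (0.983) and Synj2bp (0.982), for G6pc Chdh (0.986), Cyp4b1 (0.974) and Etnk2 (0.973), and for Ppp1r3c Cpeb4 (0.955), Slc2a9 (0.945) and Shf (0.945). Over the 15 values of the classes in NEJ638, NEJ654 and NEJ677, centred within each tissue, they were C3 (0.995), Uox (0.99) and Kng1 (0.986) for Pck1, Ak4 (0.973), Ulk1 (0.971) and Pck1 itself (0.971) for G6pc, and Slco1a4 (0.917), Knop1 (0.907) and 1110059E24Rik (0.857) for Ppp1r3c, among 7099 genes.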

How the data were processed

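The authors deposited unnormalised UMI counts per gene and spot for 10 sections of 10 µm. The submitters' processing notes name Space Ranger 1.3 and mm10 for 6 tissues and Cell Ranger 6.0 for NEJ146, whose build was not given in the sources used here; the gene lists of all 10 tables were the same. Position files, deposited with 6 tissues, gave the tissue calls and array coordinates. UMI counts were summed over tissue spots (NEJ146: 8000 or more UMIs) and divided by their total to give CPM. Sections hold 39280329 to 117077925 tissue UMIs, and intervals (exact Poisson, or exact binomial for ratios, 95%) cover counting error only. A pseudocount of 1 was used on log2 scales. Neighbouring tissues in an order were said to differ where intervals did not overlap and the gap exceeded the SD of log2(CPM + 1) over the NEJ146 sections. Called means past 4-fold over tissues or 1.5-fold between spot classes, among genes of 10 or more CPM.

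The members, gene lists and tests were chosen with earlier results of these data known. Named genes were the members, list genes past 4-fold, and the 3 of highest Pearson r; others were named after their values were seen. Of 6 listed hepatocyte genes 5 were matched by symbol, and no row carried Tf, the symbol listed for transferrin. Other spot choices, scalings, scores and class numbers, spots thinned to 5000 UMIs and leaving out each NEJ146 section were run as alternatives. Ratios were run on simulated Poisson counts for spot classes drawn at random. Those counts held no spatial structure and no landmark order, so they cannot test the classes of the real spots. Python 3.11, numpy, scipy, pandas and matplotlib were used, with GENCODE M21 and RefSeq for positions and promoters. A promoter entry for Ppp1r3b or Gys2 and protein sequences were not used here. A further listed gene is not reported here.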

Additional observations from a re-analysis of the deposited data

Results flagged for a closer look

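Dixon's test, which flags about 1 in 20 groups by chance, was run on the NEJ146 ratios of highest to lowest enzyme class for each of the 8 genes. In 4 of the 8, the ratio of 1 section lay apart from the others. All 8 tests used the same 4 sections, so they are not independent. Pck1 (2.22) and Fbp1 (0.79) were lowest in section 4, and Ppp1r3c (0.38) and Gys2 (0.29) were highest in section 2. No level of the 8 genes was set apart in this way.

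Ordering spots by landmark ratio gave log2 ratios of opposite sign in different tissues, each with a counting interval away from 0. The difference between tissues was not tested. In NEJ146, NEJ634 and NEJ687 this ratio was not taken to order spots into lobules, so values there are not read as zonation. Over spots, Pck1 correlated with both pericentral and periportal landmarks in NEJ634 (0.43 and 0.47) and in the NEJ146 sections (0.24 to 0.34 and 0.28 to 0.43). For Pck1 the log2 ratios were 1.296 in NEJ638, 1.79 in NEJ654, 1.35 in NEJ677 and 0.37 in NEJ687, against -1.01 (mean of 4 sections) in NEJ146 and -0.64 in NEJ634. For Fbp1 they were 0.64, 0.69 and 0.84 in NEJ638, NEJ654 and NEJ677, against -0.21 in NEJ146 and -0.32 in NEJ634. For G6pc they were 0.60, 0.92 and 0.73, against -0.92 in NEJ634, and for Gys2 0.23 in NEJ638 against -0.81 in NEJ634. In NEJ146 the class with the lowest landmark ratio also held the most Alb (14036 CPM, mean of 4 sections).

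Spots outside the tissue calls, which the comparisons leave out, held UMIs of the 8 genes: 8.59% of them in NEJ687, 24.6% in NEJ638, 35.2% in NEJ723, 37.8% in NEJ677, 40.8% in NEJ654 and 40.9% in NEJ634. Of all UMIs, 6.81%, 27.3%, 37.5%, 39.5%, 43.0% and 38.1% lay there.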

How the results depend on the processing

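The number of members higher in all of NEJ638, NEJ654 and NEJ677 was 5 under the main settings and 5 to 7 under other spot choices and scalings, except relative to the hepatocyte genes, where it was 0. That scaling turned the gaps of Pck1 (-1.86 on the log2 scale), Fbp1 (-0.28), Ppp1r3b (-1.02), Gys2 (-1.91) and Pygl (-1.41), and it shifted the median gene by -1.75 to -1.26 in the same 3 tissues and by 0.21 to 0.87 in the others. Of all genes 1.16% lay above under it. The count was 7 with median-of-ratios scaling (28.4% of all genes), which moved the median gene by -0.25 to 0.23, 5 to 6 without each NEJ146 section in turn, and 6 without NEJ687 or without NEJ654, both left out after seeing the data. Genes ranging past 4-fold numbered 1826, 3039 at a minimum mean of 1 CPM, 738 at 50 CPM and 1358 with a pseudocount of 5.

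Of 21 zonation values 9 were past 1.5-fold up, and 6 to 10 under the alternatives, with 6 for 3 classes. Pck1 kept log2 ratios of 1.05 or more in NEJ638, NEJ654 and NEJ677 throughout. Of 26 values over enzyme classes 10 were past 1.5-fold up, 8 with 3 classes and 7 after thinning to 5000 UMIs. Of 336 class ratios under alternatives 259 stayed within the counting interval, and no member of 10 or more CPM past 1.5-fold changed sign. Ppp1r3g, under that level, was at -0.63 in NEJ723 and changed sign after thinning. No paired analysis was possible because no sections of different tissues share an animal or a test. With 1 section in 6 of the 7 tissues, differences between tissues include those between animals and sexes. They also include any between sampling times, which were not given. Depth limits Ppp1r3g most, with 18 to 323 UMIs in NEJ654, NEJ677, NEJ638, NEJ687, NEJ723 and NEJ634. The cause of the changes with scaling was not tested.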

Other observations

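Off the tissue, Pck1 was at 1090 CPM in NEJ638, 683 CPM in NEJ677, 493 CPM in NEJ654, 472 CPM in NEJ687, 208 CPM in NEJ634 and 9.33 CPM in NEJ723. Within the tissue calls the values were 1437, 818, 555, 258, 177 and 10.95 CPM. The off-tissue level was higher than the level in tissue in NEJ687 and NEJ634 and lower in the other 4.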
